A study of Mus musculus with 6 samples.

Results

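The response of T helper cells to IL-12 culture was read from 4 of the 6 arrays of a mouse experiment: the 2 titled Th1 cells, 1 wild type and 1 Ezh2 KO, were set against the 2 titled unpolarized Th cells, paired by genotype. All cells were naive CD4 T cells (low for CD44 and high for CD62L) from the spleens of C57BL/6 mice. They were plated on 10 µg/ml antibody to TCRβ in medium with 15 ng/ml IL-2 and an agonist of CD28 (an antibody at 1 µg/ml), and after 2 days were kept for 3 more days without those antibodies. IL-12, at 1 ng/ml, was added to the Th1 cultures together with an antibody that blocks IL-4. Unpolarized cultures had the IL-4 antibody as well, no IL-12, and in addition an antibody that blocks interferon gamma (IFN-γ). The Th1 and unpolarized cultures therefore differed in IL-12 and in the IFN-γ antibody, and the effects of these cannot be told apart. The other 2 arrays, Th2 cultures of each genotype with 10 ng/ml IL-4 and the IFN-γ antibody, are given beside them where a value helps. Ezh2 is the enzyme of the Polycomb complex PRC2 that methylates histone H3 at silent genes. The labels used here name neither the allele behind the KO nor the promoter that drives any Cre, and they do not say whether the cultures came from separate mice.

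IL-12 binds a receptor made of the chains Il12rb1 and Il12rb2, to which the kinases Tyk2 and Jak2 are attached. These kinases activate the transcription factor Stat4, which, with the T-box factor T-bet (Tbx21), switches on Ifng in cells turning into Th1 cells. Secreted IFN-γ then acts on the same cells through its receptor chains Ifngr1 and Ifngr2, and induces Irf1, Tbx21 and a large set of immunity genes, among them the p47 and p65 families of GTPases that attack vacuoles holding pathogens.

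Values are intensities on a linear scale, already scaled to a common trimmed mean (500.003 on every array), with array medians from 61.3 to 69.1. Values under 11.3 were raised to that floor, and 11572 genes reached 64.4 (the median of all values, called the low-signal limit here) on at least 1 array and were tested. A difference is Th1 minus unpolarized on the log2 scale, so that 1 is a 2-fold higher intensity, and it is given for the wild type pair, for the Ezh2 KO pair, or as the mean ± SD over these 2 pairs. In limma's fit of genotype and culture to all 6 arrays, 0 genes (0%) passed an adjusted p of 0.05 for Th1 against unpolarized, and the smallest adjusted p was 0.497. At an unadjusted p of 0.05 limma marked 632 genes (5.46%), 313 higher and 319 lower in Th1 cultures. With 2 pairs an exact sign-flip test of 1 gene cannot give a two-sided p below 0.5, and with 1 array per group any p-value measures only the spread between these arrays. The results below are therefore descriptions of size and direction. As reference points, 24.4% of all genes tested were higher in Th1 cultures in both genotypes and 29.2% were lower in both, and the median difference over all genes was -0.00 in the wild type pair and -0.02 in the Ezh2 KO pair. Centring each array on its median instead would move these medians to 0.10 and -0.12.

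Ezh2 itself had intensities of 7002 and 6553 in wild type unpolarized and Th1 cells and of 4971 and 4876 in the Ezh2 KO cells. Its probe set was thus lower on both KO arrays, though not near the floor, and it differed by less than 0.10 between the cultures of either genotype. The sources used here do not say where the probes lie relative to the deleted part.

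Il12rb1, Il12rb2 and Stat4 were higher in both Ezh2 KO cultures than in both wild type cultures. The 2 kinases of the receptor lay in a narrow range on the probe sets used. Il12rb1, the chain shared with the IL-23 receptor, had an intensity of 275 in wild type unpolarized cells and 357 in wild type Th1 cells, and of 1116 and 1269 in the Ezh2 KO cells. Il12rb2, the chain that docks Stat4, was at 23.5 and 61.6 in wild type cells and at 119 and 144 in Ezh2 KO cells, and its difference was 0.83 ± 0.79 (SD, n = 2 pairs). Both wild type values of Il12rb2 were under the low-signal limit. For each receptor chain the Th1 array was the higher one within a genotype. In limma's fit without the wild type Th1 array, which also carries Th2 values, the Il12rb2 difference was 0.18. Stat4 was at 1684 and 1763 in wild type cells and at 2653 and 2496 in Ezh2 KO cells, so that its small differences had opposite signs (0.07 and -0.09). Tyk2 stayed between 821 and 899 and Jak2 between 1820 and 2048 over the 4 arrays. The mean of all Tyk2 probe sets gave a difference over both pairs of 0.47, against 0.07 for the one used. For Jak2 these values were -0.006 and -0.05. Of the 12 genes listed for IL-12 receptor signalling, 11 were tested. Their median difference was 0.00 in wild type and -0.03 in Ezh2 KO cells, 4 were higher and 4 were lower in both genotypes, and 0 had an unadjusted limma p under 0.05.

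Genes further down the pathway showed larger differences, above all in wild type cells. Tbx21, the gene of T-bet, was at 90.0 in wild type unpolarized cells and 530 in wild type Th1 cells, a 5.89-fold difference, and at 488 and 643 in the Ezh2 KO pair, a 1.32-fold difference. The KO unpolarized value was thus close to the wild type Th1 value without IL-12, and over both pairs the difference of 1.48 ± 1.53 (SD, n = 2 pairs) was smaller than its spread (adjusted p = 0.857 in limma). In limma's fit this difference was 0.49 without the wild type Th1 array and 2.46 without the Ezh2 KO Th1 array. Both of these values also carry Th2 values. Ifng, the signature cytokine of Th1 cells, was at the floor in wild type unpolarized cells and at 25.8 in wild type Th1 cells, and at 266 and 767 in the Ezh2 KO pair. It was therefore at least 2.28-fold higher in the wild type pair and 2.88-fold higher in the KO pair, although both wild type values were under the low-signal limit. Its KO difference of 1.53 was the largest among the 23 tested Th1 effector genes in that genotype, and its mean over both pairs, with wild type unpolarized cells set at the floor, was 1.36 ± 0.24 (SD, n = 2 pairs, adjusted p = 0.857 in limma). That mean depended on the floor, and was 0.76 when the floor was raised to percentile 40. Il18r1 and Il18rap, the receptor chains for IL-18, which acts with IL-12 on Ifng, were only slightly higher in Th1 cultures. Il18r1 was at 2032 and 2288 in wild type and at 5817 and 6924 in Ezh2 KO cells, and Il18rap at 562 and 730 and at 1122 and 1389. Eomes, a T-box factor related to T-bet, was at 161 and 313 in wild type and at 1071 and 1439 in Ezh2 KO cells, with a difference of 0.69 ± 0.38 (SD, n = 2 pairs). Runx3, a partner of T-bet, was at 1470 and 1987 in wild type cells and at 3126 and 3145 in Ezh2 KO cells. On this probe set only the wild type pair showed a difference of note (0.43 against 0.01). The mean of all Runx3 probe sets gave a difference over both pairs of 0.55, against 0.22 for the one used. Hlx, a homeobox factor of Th1 cells, was at the floor on all 4 arrays.

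**Figure D1:**
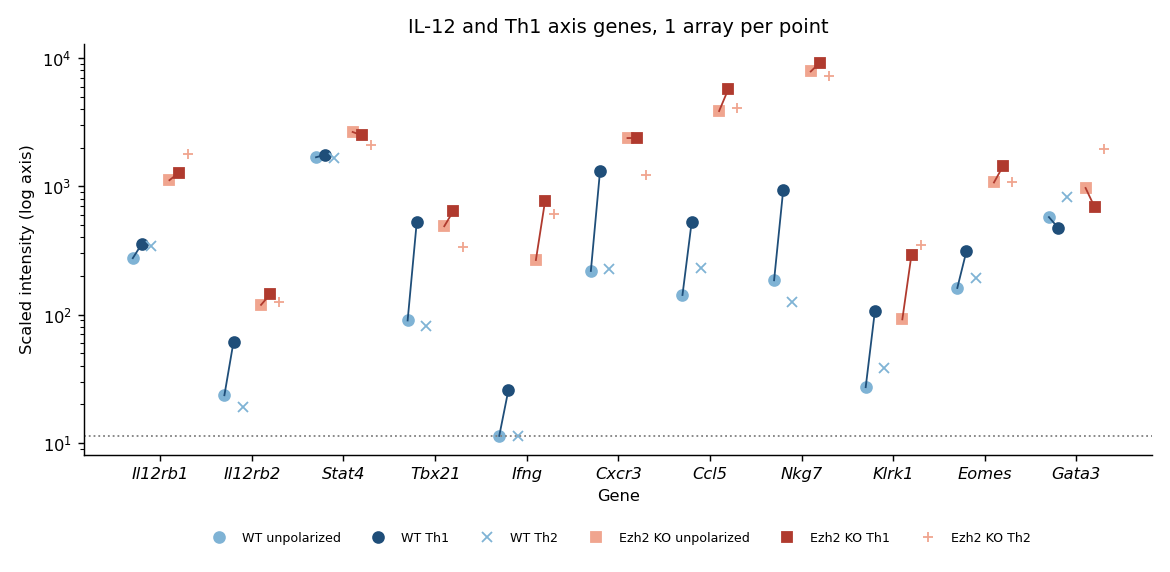
Scaled intensity (log axis) of 11 genes of the IL-12 and Th1 axis on each of the 6 arrays, 1 point per array, with lines joining unpolarized to Th1 within a genotype and the dotted line at the floor of 11.3. The wild type lines climb steeply for Tbx21, Cxcr3, Ccl5 and Nkg7, while the Ezh2 KO lines of these genes start at or near the wild type Th1 level, or above it, and are short; for Ifng and Klrk1 both lines are long.

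Several chemokine and cytotoxic genes differed mainly between the wild type cultures and were high in both Ezh2 KO cultures. Cxcr3, the receptor that draws Th1 cells to inflamed tissue, was at 219 and 1313 in wild type unpolarized and Th1 cells and at 2378 and 2382 in the Ezh2 KO pair. It was 6.00-fold higher in the wild type pair and 1.00-fold in the other. Its mean difference of 1.29 ± 1.83 (SD, n = 2 pairs) was smaller than its spread. In limma's fit the Cxcr3 difference ran from 0.26 without the wild type Th1 array to 2.33 without the Ezh2 KO Th1 array. These 2 values also carry Th2 values. Ccl5, a chemokine of effector cells, was at 142 and 524 in wild type cells and at 3862 and 5712 in Ezh2 KO cells, with differences of 1.88 and 0.56. Nkg7, a protein of cytotoxic granules, was at 185 and 944 in wild type cells and at 7856 and 9208 in Ezh2 KO cells, with differences of 2.35 and 0.23. Ctsw, a protease of cytotoxic lymphocytes, was at 368 and 1204 and at 3484 and 3735. For Cxcr3, Ccl5, Nkg7 and Ctsw both KO arrays were above both wild type arrays. The lectin receptors Klrk1 (NKG2D) and Klrc1 (NKG2A) were higher in the Th1 culture of each genotype. Klrk1 was at 27.2 and 106 in wild type cells and at 91.8 and 294 in Ezh2 KO cells, which is 3.91-fold and 3.20-fold, the first from a wild type unpolarized value under the low-signal limit. Klrc1 was at the floor and at 27.7 in wild type cells and at 172 and 403 in Ezh2 KO cells, with differences of at least 1.29 and of 1.23. The wild type Klrc1 values were under the low-signal limit, and a second Klrc1 probe set gave -0.30 and 0.46. Not all granule genes followed. Gzmb, the main granzyme, was at 25346 and 32780 in wild type cells but at 52931 and 43232 in Ezh2 KO cells, so that it was lower in the KO Th1 culture, and Prf1, the pore protein, was at 82.2 and 78.2 and at 453 and 566.

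Of the 28 genes listed as Th1 effector and Stat4 target genes, 23 were tested. Of these, 17 were higher in Th1 cultures in both genotypes and 0 were lower in both, beside 24.4% and 29.2% of all genes. Their median difference was 0.61 in wild type and 0.19 in Ezh2 KO cells, and 3 of 23 had an unadjusted limma p under 0.05. With median centring 12 of the 23 were higher in both, and the medians were 0.71 and 0.09. Of the 22 cytotoxic granule genes, 21 were tested, 13 were higher in both genotypes and 1 was lower in both, the medians were 0.42 and 0.30, and 4 of 21 had an unadjusted limma p under 0.05. Neither list held a gene that passed the adjusted threshold. Both lists were chosen with earlier results of these arrays known, so their direction is a description.

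Genes induced by IFN-γ were mostly higher in the Th1 cultures of both genotypes, with larger differences in wild type cells. Iigp1 (Irga6), a p47 GTPase, was at 950 and 3828 in wild type unpolarized and Th1 cells and at 3993 and 7468 in the Ezh2 KO pair, which is 4.03-fold and 1.87-fold. A second Iigp1 probe set gave differences of 1.96 and 0.95, close to the 2.01 and 0.90 of the first. Igtp (Irgm3) was at 6396 and 16254 in wild type and at 19478 and 26461 in Ezh2 KO cells. Among the p65 GTPases, Gbp2 was at 892 and 2152 and at 3332 and 6152, a difference of 1.08 ± 0.27 (SD, n = 2 pairs, adjusted p = 0.857 in limma). Gbp3 was at 400 and 1153 in wild type cells and at 847 and 1389 in Ezh2 KO cells. In this group the Th1 array was the higher one in each genotype, and for Iigp1, Igtp and Gbp2 the KO unpolarized array lay above the wild type Th1 array, while for Gbp3 it lay below. Irgm1, Irgm2, Gbp6 and Gbp7 had the same order, with differences from 0.73 (Gbp7) to 1.48 (Gbp6) in wild type and from 0.30 (Gbp6) to 0.59 (Irgm1) in Ezh2 KO cells. Irf1, the transcription factor made early after IFN-γ, was at 1627 and 2968 in wild type and at 3830 and 4827 in Ezh2 KO cells (0.60 ± 0.38, SD, n = 2 pairs).

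Antigen presentation genes of the same list differed less. B2m, the light chain of class I molecules, was at 33061 and 32828 in wild type and at 38813 and 31637 in Ezh2 KO cells. Psmb9, a subunit of the immunoproteasome, was at 9438 and 12557 and at 11976 and 12076. Tap1, a peptide transporter, was at 5246 and 5615 and at 6433 and 7214. The feedback inhibitor Socs1 was at 919 and 967 in wild type and at 1654 and 1322 in Ezh2 KO cells, differences of opposite sign (0.07 and -0.32). The class II gene H2-Aa was at 37.4 and 117 in wild type cells and at 1135 and 1360 in Ezh2 KO cells. Its wild type difference (1.64) started under the low-signal limit, and the other 3 H2-Aa probe sets, all dimmer in Ezh2 KO cells, gave -0.20, 0 and -0.23 in wild type cells. Over the whole list of 49 genes, 35 were tested, 23 were higher in both genotypes and 2 were lower in both, and the medians were 0.41 and 0.14. With median centring 18 of the 35 were higher in both and the Ezh2 KO median was 0.04. The wild type difference exceeded the KO difference in 32 of 35 genes, beside 53.6% of all genes tested, and the KO unpolarized array lay above the wild type Th1 array in 32 of 35, beside 45.6%. With median centring each of these counts was 33 of 35, beside 73.4% and 52% of all genes. By unadjusted limma p, 5 of 35 were under 0.05.

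The 2 chains of the IFN-γ receptor differed in opposite directions. Ifngr1, the ligand-binding chain, was at 3084 and 4396 in wild type and at 8070 and 8423 in Ezh2 KO cells. Ifngr2, the signalling chain whose loss is known from Th1 cells exposed to IFN-γ, was at 1043 and 345 in wild type cells and at 241 and 144 in Ezh2 KO cells, a lower value in the Th1 culture of each genotype (-1.17 ± 0.61, SD, n = 2 pairs, adjusted p = 0.857 in limma). A second Ifngr2 probe set, dimmer on each array, was at 190 and 208 in wild type cells and at 98.2 and 85.1 in Ezh2 KO cells and so did not show the wild type difference.

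**Figure D2:**
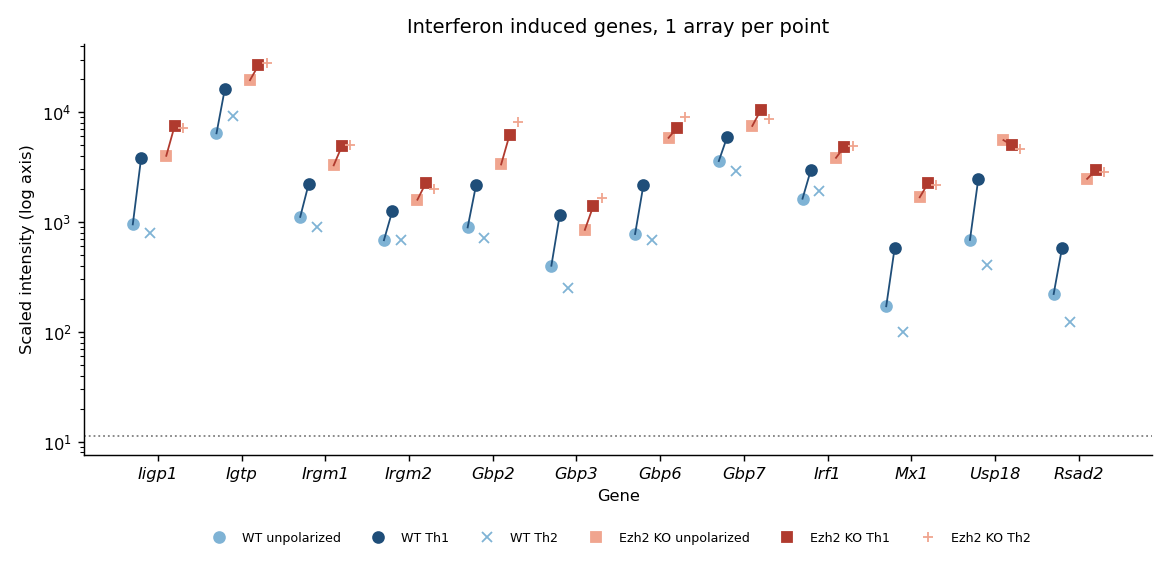
Scaled intensity (log axis) of 12 interferon induced genes on each of the 6 arrays, 1 point per array, with lines joining unpolarized to Th1 within a genotype and the dotted line at the floor of 11.3. Each wild type line climbs from the unpolarized to the Th1 point, the Ezh2 KO lines are shorter, and only Usp18 is lower in KO Th1 than in KO unpolarized cells (4993 against 5548).

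The genes listed as type I interferon response genes, many of which IFN-γ also induces, had the largest wild type median of any list of 8 or more tested genes. Of the 27 tested, 26 were higher in wild type Th1 cells, with a median of 0.85, and 19 were higher in Ezh2 KO Th1 cells, with a median of 0.09. Over all 11572 genes tested, 5711 were higher in the wild type pair and 5280 in the KO pair. The KO median of the list became -0.00 with median centring, and 0.10 with quantile normalization. With median centring 26 of the 27 were higher in wild type and 13 in Ezh2 KO Th1 cells, beside 7653 and 3636 of 11568 genes. Mx1, a GTPase against viruses, was at 171 and 575 in wild type cells and at 1676 and 2246 in Ezh2 KO cells. Usp18, which removes ISG15 from proteins and dampens interferon signalling, was at 686 and 2468 and at 5548 and 4993, so that its KO pair ran the other way. Mx2 was at the floor and at 80.8 in wild type cells, at least 7.14-fold higher, and at 135 and 156 in Ezh2 KO cells. The wild type Th2 culture, which like the unpolarized one held the IFN-γ antibody, had 101 for Mx1 and 409 for Usp18 and Mx2 at the floor. In these genes wild type Th1 was therefore the highest of the 3 wild type arrays, and all KO arrays were above it. No gene of the list had an unadjusted limma p under 0.05 (0 of 27).

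The promoters of these genes were searched, because IFN-γ acts through the GAS element and, with Irf1, through the ISRE. In RefSeq windows from 250 bases before to 50 after the start (GRCm38.p6), GAS was taken as TTCNNNGAA, the ISRE core as GAAANNGAA and a T-box site as TCACACCT, each on both strands, with overlaps allowed. Windows were matched for 9405 of the 11572 genes, of which 8.28% held a GAS match, 8.39% an ISRE match and 1.24% a T-box match in at least 1 window. Among the IFN-γ induced genes with a window, 7 of 26 (26.9%) held GAS and 11 of 26 (42.3%) ISRE. Among the type I interferon response genes 6 of 20 (30%) held GAS and 11 of 20 (55.0%) ISRE, and among the Th1 effector genes 4 of 16 (25.0%) held GAS and 1 of 16 (6.25%) ISRE. Genes at 2-fold or more higher in both genotypes held GAS in 3 of 44 (6.82%), near the share of all genes, and ISRE in 6 of 44 (13.6%). No window of these 4 sets (0 of 26, 0 of 20, 0 of 16 and 0 of 44 genes) held a T-box match. A match is a description of the letters and does not show a bound site. Of 19 core genes with a window, 5 held a GAS match: Ifng, Il12rb2, Il18r1, Irf1 and Il4. The windows of 3 of them are shown, as the cytokine, a chain of the IL-12 receptor and an early IFN-γ target, with those of the GTPase genes Igtp and Irgm2, which hold both motifs and were chosen after their values were seen. Capitals mark the GAS and ISRE matches, and all are written along the gene, 5′ to 3′.
Ifng, chr10:118440796-118441095, plus strand: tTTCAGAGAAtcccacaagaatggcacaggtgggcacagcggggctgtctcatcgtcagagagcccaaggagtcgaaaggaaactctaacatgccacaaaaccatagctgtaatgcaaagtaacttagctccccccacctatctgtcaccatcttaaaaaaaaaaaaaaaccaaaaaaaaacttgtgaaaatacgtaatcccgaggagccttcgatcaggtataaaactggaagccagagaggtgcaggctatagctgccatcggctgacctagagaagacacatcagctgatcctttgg
Il12rb2, chr6:67376139-67376438, minus strand: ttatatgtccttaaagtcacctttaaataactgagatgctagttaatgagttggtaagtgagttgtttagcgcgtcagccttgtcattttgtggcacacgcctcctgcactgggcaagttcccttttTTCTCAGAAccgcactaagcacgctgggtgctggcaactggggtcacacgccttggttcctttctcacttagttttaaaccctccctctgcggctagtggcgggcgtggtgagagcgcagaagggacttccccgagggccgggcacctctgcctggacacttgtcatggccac
Irf1, chr11:53769764-53770063, plus strand: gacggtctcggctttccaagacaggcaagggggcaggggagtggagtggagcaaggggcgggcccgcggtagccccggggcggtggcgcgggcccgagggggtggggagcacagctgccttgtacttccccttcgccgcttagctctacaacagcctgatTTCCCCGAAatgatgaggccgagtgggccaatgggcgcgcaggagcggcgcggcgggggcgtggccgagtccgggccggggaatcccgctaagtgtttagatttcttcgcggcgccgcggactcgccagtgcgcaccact
Igtp, chr11:58199306-58199605, plus strand: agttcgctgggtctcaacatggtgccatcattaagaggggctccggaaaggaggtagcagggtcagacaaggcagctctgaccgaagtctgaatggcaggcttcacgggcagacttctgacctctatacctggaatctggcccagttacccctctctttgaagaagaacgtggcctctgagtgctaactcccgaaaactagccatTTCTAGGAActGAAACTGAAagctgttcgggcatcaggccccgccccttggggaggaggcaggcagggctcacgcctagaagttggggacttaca
Irgm2, chr11:58214727-58215026, plus strand: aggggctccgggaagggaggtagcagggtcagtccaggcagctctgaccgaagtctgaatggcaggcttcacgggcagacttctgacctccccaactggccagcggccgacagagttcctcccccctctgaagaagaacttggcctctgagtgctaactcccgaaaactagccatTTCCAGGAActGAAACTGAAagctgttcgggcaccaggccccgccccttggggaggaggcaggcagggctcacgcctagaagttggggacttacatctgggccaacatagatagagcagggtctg
The first base of the GAS match lay at -249 in Ifng, -123 in Il12rb2, -90 in Irf1, -45 in Igtp and -75 in Irgm2, counted from the start of the transcript. In Igtp and in Irgm2 the ISRE match followed 2 bases after the GAS match. The wild type and KO differences of these 2 neighbouring genes were 1.35 and 0.44 for Igtp and 0.88 and 0.50 for Irgm2.

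Genes of naive and memory T cells were mostly lower in Th1 cultures. S1pr1, the receptor by which lymphocytes leave lymph nodes, was at 2258 and 888 in wild type and at 1570 and 1349 in Ezh2 KO cells. Klf2, the factor that maintains S1pr1, was at 2376 and 1176 and at 2080 and 1735. Dapl1, a gene of resting T cells, was at 2991 and 1356 and at 303 and 166, a difference of similar size in each genotype (-1.14 and -0.87, adjusted p = 0.857 in limma). Of the 17 tested genes of this list 10 were lower and 4 higher in both genotypes, with medians of -0.36 in wild type and -0.08 in Ezh2 KO cells (-0.25 and -0.18 with median centring), and 3 of 17 had an unadjusted limma p under 0.05. For Klf2 and S1pr1 the wild type Th2 array was also low (1371 and 1256), between the unpolarized and the Th1 array.

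Lists of other helper fates had medians slightly below 0 or were split. Gata3, the Th2 factor, was at 575 and 475 in wild type and at 971 and 686 in Ezh2 KO cells, lower in each Th1 culture (-0.39 ± 0.16, SD, n = 2 pairs), while the Th2 arrays had 830 and 1962. Il4 was at 24.1 and 20.5 and at 230 and 204, and Il10 at 25.0 and 34.7 and at 284 and 361, all with the wild type values under the low-signal limit. Of 17 tested Th2 genes 4 were higher and 7 lower in both genotypes, and the median was -0.11 in each. Rora, a factor of Th17 cells, was at 423 and 222 in wild type and at 716 and 498 in Ezh2 KO cells, while dimmer Rora probe sets disagreed in sign. Of the 4 tested Th17 genes 3 were lower in both genotypes, with medians of -0.24 and -0.22. Of 14 tested regulatory T cell genes 8 were lower in both, with medians of -0.13 and -0.10, and 3 higher. The follicular helper list was split, 5 higher and 4 lower of 10.

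Genes that follow T cell receptor signals were mostly higher in Th1 cultures, although the antibodies had been absent for 3 days. Egr1, an immediate early factor, was at 670 and 3215 in wild type and at 2245 and 5040 in Ezh2 KO cells, 4.80-fold and 2.24-fold. Cd69, an early activation marker, was at 2456 and 3322 and at 3485 and 6143. Of 21 tested activation genes 14 were higher and 1 lower in both genotypes, the medians were 0.30 and 0.12, and 3 of 21 had an unadjusted limma p under 0.05. The lists of general cell state had medians near those of all genes in wild type cells. Proliferation genes had 0.03 in wild type and -0.06 in Ezh2 KO cells over 29 genes, glycolysis genes 0.06 and -0.19 over 14, sterol synthesis genes -0.02 and -0.16 over 16, genes of the IL-2 and STAT5 response 0.06 and -0.06 over 19, and apoptosis genes 0.08 and 0.01 over 14. Inhibitory receptors had 0.09 and 0.11 over 10 genes, homing genes 0.07 and 0.02 over 18, and the PRC2 genes 0.03 and 0.01 over 11.

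**Figure D3:**
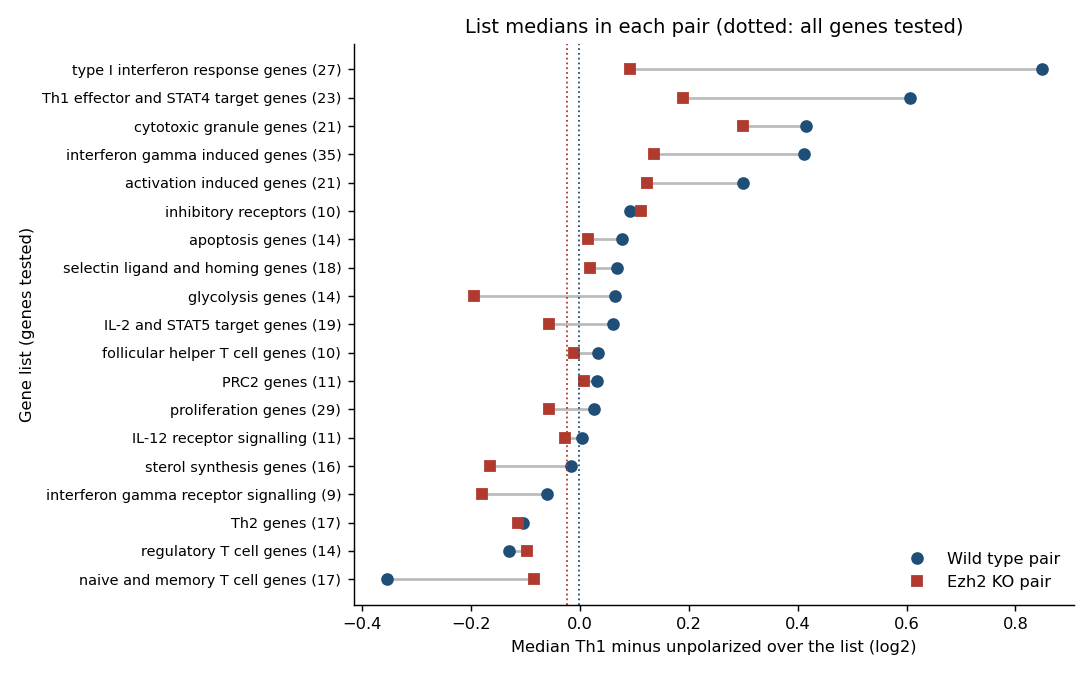
Median Th1 minus unpolarized difference (log2) of each gene list with 8 or more tested genes, marker lists left out, for the wild type pair (circles) and the Ezh2 KO pair (squares), with the number of genes tested in brackets and dotted lines at the medians of all genes tested. The type I interferon, Th1 effector and IFN-γ induced lists lie furthest to the right in wild type cells together with the cytotoxic list, and each has a smaller median in Ezh2 KO cells; the naive and memory list lies furthest to the left in wild type cells.

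Counting genes at 2-fold or more in both genotypes gave a different picture from the lists. Over all genes tested, 61 (0.527%) were at least 2-fold higher and 50 (0.432%) at least 2-fold lower in the Th1 culture of both genotypes, while 25 were 2-fold higher in wild type and 2-fold lower in Ezh2 KO cells and 63 the reverse. Nearly all of these genes were dim. Tested genes with a mean intensity of at least 314 (the mean being taken on the log2 scale over the 6 arrays) are called brighter here. The 4295 dimmer genes held 60 of the 61 and all 50. The SD of the wild type difference across genes was 0.96 in the dimmest of 5 equal groups of genes and 0.20 in the brightest, and that of the KO difference 0.95 and 0.17. Beside Klrk1, the 12 genes with the highest smaller difference in both genotypes included Bahcc1 (13.2 and 94.9 in wild type, the floor and 113 in Ezh2 KO cells), Tgm3 (11.4 and 70.4, the floor and 51.3), and Cd40, a costimulatory receptor (16.7 and 53.7, 12.6 and 71.9). A second Cd40 probe set ran the other way in wild type cells (45.0 and the floor) and the same way in Ezh2 KO cells (15.8 and 63.5). Bahcc1, Tgm3 and Cd40 were at or near the floor in the unpolarized culture of each genotype. At the other end, Npy was at 52.1 and the floor in wild type and at 113 and the floor in Ezh2 KO cells, and Faxc, with the smallest limma p of all genes (7.65e-05, adjusted 0.497), at 64.7 and the floor and at 53.3 and the floor. The Th2 arrays had 71.7 and 30.1 for Npy, and 38.1 and 36.3 for Faxc. No value given here for Bahcc1, Tgm3, Cd40, Npy or Faxc was above 113.

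**Figure D4:**
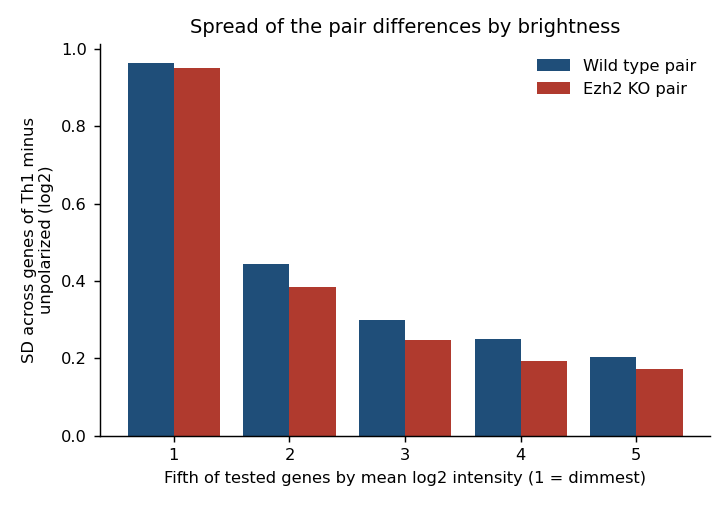
Standard deviation across genes of the Th1 minus unpolarized difference (log2) in 5 equal groups of the 11572 tested genes by mean log2 intensity, for the wild type pair and the Ezh2 KO pair. The bars fall from 0.96 and 0.95 in the dimmest group to 0.20 and 0.17 in the brightest, and the dimmest group holds 105 of the 111 genes at 2-fold or more in both genotypes.

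The 7277 brighter genes were therefore described as well, a choice made after the values were seen. Among them 47 (0.646%) were at least 2-fold higher and 16 (0.22%) at least 2-fold lower in wild type Th1 cells, against 5 (0.0687%) and 2 (0.0275%) in Ezh2 KO cells, and Egr1 was the 1 gene at 2-fold in both. Across the brighter genes the Pearson correlation of the 2 pair differences was 0.22, and across the dimmer genes 0.02, as descriptions over genes, which are not independent replicates. The 12 brighter genes with the highest smaller difference were Egr1, Iigp1, Gbp2, Casp4, Gbp3, Gem, Fgl2, Zfp991, Irgm1, Gpr65, Tmem181a and Ccl5. Casp4, an inflammatory caspase, was at 329 and 584 in wild type and at 223 and 391 in Ezh2 KO cells, nearly equal in size in both pairs (0.82 ± 0.01, SD, n = 2 pairs, adjusted p = 0.857 in limma). Fgl2, a prothrombinase induced by IFN-γ, was at 102 and 272 and at 3672 and 5969. Gpr65, a proton-sensing receptor, was at 400 and 605 and at 840 and 1445. The lowest 12 were led by Dapl1, Pdlim4, Ifngr2, Ramp1 and Tiam1. Pdlim4, a LIM domain protein, was at 1253 and 276 in wild type and at 839 and 501 in Ezh2 KO cells, and Ramp1, a co-receptor for calcitonin gene-related peptide, at 2640 and 1377 and at 1449 and 901 (-0.81 ± 0.18, SD, n = 2 pairs). Of 2 far dimmer Ramp1 probe sets, 1 gave -0.92 and -1.45 and the other -0.18 and 0.03. Tiam1, an activator of Rac, was at 1657 and 902 and at 838 and 543 (-0.75 ± 0.18, SD, n = 2 pairs). The ranking by the smaller of 2 differences of the same sign favours pairs of like size. An SD below the mean is thus largely built in for the genes of these rankings.

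**Figure D5:**
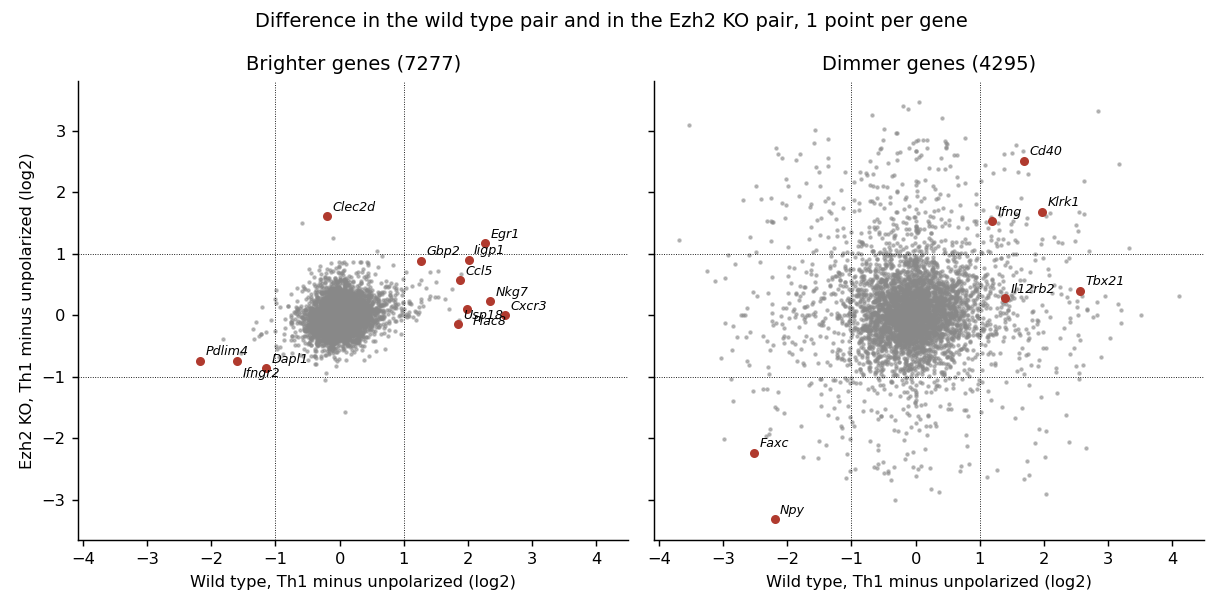
Th1 minus unpolarized difference (log2) of each tested gene in the wild type pair (x axis) and in the Ezh2 KO pair (y axis), for 7277 brighter and 4295 dimmer genes, with dotted lines at 2-fold and named genes in red. Brighter genes spread along the wild type axis to 2.59 (Cxcr3), mostly with small KO differences. A few brighter genes lie far along the KO axis, among them Clec2d at 1.61. Dimmer genes spread in all directions.

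The 47 brighter genes at 2-fold or more in the wild type pair were then read on the KO arrays. These had no part in the 2-fold choice, but they count in the mean that makes a gene brighter, so a gene low in wild type cells enters only if it is high in KO cells. In Ezh2 KO cells 40 of 47 were higher in the Th1 culture and 7 lower, beside 40.8% of all brighter genes that were higher, and 1 reached 2-fold. Their median difference was 1.26 in wild type cells, where it was fixed by the choice, and 0.21 in Ezh2 KO cells. In 42 of the 47 the KO unpolarized array was above the wild type Th1 array, beside 46.5% of brighter genes, a count that the brightness rule partly fixes. With brightness judged on the 3 wild type arrays alone, an alternative added after the values were seen, 31 of 7328 genes (0.423%) were at least 2-fold higher in wild type Th1 cells. Of these 31, 23 were higher and 8 lower in Ezh2 KO Th1 cells, beside 40.6% of the 7328 that were higher, with a KO median of 0.11. The KO unpolarized array was above the wild type Th1 array in 24 of the 31, beside 44.2%. Plac8, a gene of effector lymphocytes, was at 1879 and 7453 in wild type and at 21397 and 22998 in Ezh2 KO cells. Ifitm3, an interferon induced membrane protein, was at 3570 and 8571 and at 16093 and 19277. The wild type Th2 array was below the wild type Th1 array in 41 of 47, beside 47.5% of brighter genes, though the choice favoured high wild type Th1 values. Of the 47, 12 (25.5%) belonged to either interferon list, beside 53 (0.728%) of the brighter genes. The lists were chosen with earlier results of these arrays known. For the IFN-γ and type I lists, KO unpolarized was above wild type unpolarized in 35 of 35 and 27 of 27 tested genes. Over all genes tested this held for 5121 of 11572. With median centring the list counts were the same, beside 6925 of 11568 genes. The brightness rule thus partly fixes the share of 25.5%, which was not counted again for the 31 genes. Of the 34 of the 47 with a promoter window, 8 (23.5%) held GAS, 10 (29.4%) ISRE and 4 (11.8%) a T-box match. The shares of all tested genes with a window were 8.28%, 8.39% and 1.24%, and those of the brighter genes were not counted. The 47 include genes of the interferon lists, whose own shares are given above. Of the 16 genes lower in wild type Th1 cells, 14 were also lower in Ezh2 KO cells, beside 59.2% of brighter genes, with medians of -1.24 and -0.31. With brightness judged on the wild type arrays, 16 genes were at least 2-fold lower in wild type Th1 cells and 14 of them were lower in Ezh2 KO cells, beside 59.4%. A larger difference in the pair that chose the genes is built into such a choice, and the difference between the pairs has no replicate and was not tested.

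The genes chosen by the Ezh2 KO pair were fewer. Clec2d, a ligand of the inhibitory receptor Klrb1, was at 1234 and 3759 in Ezh2 KO unpolarized and Th1 cells and at 2015 and 1767 in wild type cells. Ddr1, a collagen receptor, was at 247 and 702 and at 436 and 289, and Scyl2 at 418 and 992 and at 497 and 465. The KO differences of the other, dimmer Ddr1 probe sets ran from -0.98 to 0.59, against 1.51 for the one used. Dimmer Scyl2 probe sets did not all show its difference. Tmem181a, at 292 and 599 in Ezh2 KO and 491 and 736 in wild type cells, and Egr1 were the other two, so that 2 of the 5 ran the same way in both genotypes. Cnksr3 was at 251 and 84.2 in Ezh2 KO cells and at 754 and 801 in wild type cells, and Cit, a mitotic kinase, at 1134 and 549 and at 875 and 750, while the KO differences of 3 dimmer Cit probe sets ran from -0.18 to 0.43. The KO Th2 array had 4176 for Clec2d and 120 for Cnksr3, near the KO Th1 values. Over all genes tested, the KO difference was at least 2-fold above the wild type one in 671 and at least 2-fold below it in 444. This split was 512 and 653 with median centring and 522 and 597 with quantile normalization, so that its direction depended on the scaling.

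Against the Th2 cultures, 0 genes (0%) passed limma's threshold for Th1 minus Th2, with 878 at an unadjusted p under 0.05 and a smallest adjusted p of 0.255. With a mean-dependent prior in limma 16 genes passed, 3 higher and 13 lower in Th1 cells. Tbx21 was at 80.8 in wild type and 336 in Ezh2 KO Th2 cells, and Cxcr3 at 227 and 1215, each below the Th1 array of its genotype. Iigp1 was at 798 in wild type Th2 cells, near the unpolarized 950, and at 7150 in Ezh2 KO Th2 cells, near the KO Th1 value of 7468. Ifng was at the floor in wild type and at 608 in Ezh2 KO Th2 cells.

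The markers listed for CD4 T cells summed to between 57756 and 66281 over the 6 arrays. Much of this came from Cd3d, Cd3g and Cd2, genes of T cells in general. Cd4 itself was at 496 and 477 in wild type unpolarized and Th1 cells and at 433 and 300 in Ezh2 KO cells. A second, dimmer Cd4 probe set was at 134 and 139 and at 52.6 and 67.2. NK and NKT markers, 4 of 6 of which never reached the low-signal limit, summed to 189 and 216 in wild type unpolarized and Th1 cells and to 960 and 901 in Ezh2 KO cells. Most of the KO sums came from Cd160, at 814 and 704 there and at 80.0 and 44.7 in wild type cells. B cell markers summed to 8676 and 7362 and to 5903 and 4483, almost all of it from Ighm, and 2 of 6 were under the limit throughout. CD8 markers summed to 374 to 429 on the 4 arrays, myeloid and dendritic markers to 423 to 566, gamma delta T markers to 65.7 to 213, mast and basophil markers to 197 to 399, and all 3 erythroid markers were under the limit. The part of other cells in the differences was not tested, and fewer cells of a type cannot be told apart from less RNA per cell.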

How the data were processed

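RNA of 6 cultures was measured on 6 Affymetrix 3' arrays, 1 per group. Per probe set, the authors deposited linear intensities. Affymetrix Expression Console is named without a version, per the submitters' processing notes, and the sources used here do not name the summarization algorithm. The deposited intensities had the same trimmed mean (2% at each end) on every array. Array number and signal over background limit the precision.

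Of 45101 probe sets, 34945 had 1 gene symbol in the platform's annotation, 932 several and 9160 none, and 64 were controls. RefSeq (GRCm38.p6) held 34741 of the named ones, and 0 symbols needed an update. Values were raised to the 20th percentile of all values (11.3) before taking log2. Each of 18193 genes was represented by its probe set of highest mean, and those reaching the overall median (64.4) on any array were tested. A fold from the floor is a lower bound. limma 3.58.1 in R 4.3.3 fitted genotype and culture to all 6 arrays (2 residual and 1.66 prior degrees of freedom), with Benjamini-Hochberg adjustment. The fit was tested on simulated data with normal noise and the same Th1 change in both genotypes. That setting does not cover differences of unlike size in the 2 pairs.

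The genes named are 23 core genes (22 tested), the 12 highest and 12 lowest by the smaller pair difference, the 6 highest and 6 lowest differences between the pairs, and up to 4 per list from 28 lists. Other genes, and all naming among the brighter genes, were chosen after their values were seen. The comparison, the members and the lists were chosen with earlier results of these data known. Alternatives were other scalings, floors, filters, probe set rules, fits, and each array left out.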

Additional observations from a re-analysis of the deposited data

Results flagged for a closer look

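In 26 of the genes named, the Th1 minus unpolarized difference had opposite signs in the 2 genotypes. Each group had 1 array, so this difference between genotypes was not tested. Values are the Ezh2 KO difference minus the wild type difference on the log2 scale.

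Of the genes of the IL-12 and IFN-γ axis, Socs1 had -0.40, Stat4 -0.15 and Jak2 0.15, all small, and the wild type and KO differences of Stat4 (0.07 and -0.09) and Jak2 (-0.12 and 0.03) lay near 0. Among brighter genes, Usp18 had -2.00 and Dapk2, a kinase linked to cell death, -1.94, each with a wild type difference of 1.85 or 1.86 and a KO difference of -0.15 or -0.08. Cnksr3 had -1.66, Scyl2 1.34, Clec2d 1.80 and Ddr1 2.10, each with the larger difference in the Ezh2 KO pair. Fas, the death receptor, had 1.40: it was at 815 and 409 in wild type unpolarized and Th1 cells and at 611 and 812 in Ezh2 KO cells.

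Of genes named elsewhere, Gpld1 had -1.18, Hmgn3 -1.07, Gzmb -0.66 and Prf1 0.39.

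The remaining values belong to dim genes. Diras1 had -4.94, Slc29a2 -4.81, Sh3pxd2b -4.45, Sst -4.37, Cdk5r1 -4.36 and Crybb3 -4.32. In the other direction Fam163b had 4.58, Rap1gap 4.58, Plekhh1 4.64, Sapcd1 4.89, Frat2 4.91 and Gapdhs 6.62. Gapdhs, a glycolytic enzyme of sperm, was at 166 and 14.3 in wild type and at 14.3 and 122 in Ezh2 KO cells.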

How the results depend on the processing

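No gene passed limma's threshold for Th1 against unpolarized under any alternative run, with 191 (no genotype block) to 1072 (no low-signal filter) genes at an unadjusted p under 0.05 and smallest adjusted p from 0.497 to 0.885. For Th1 against Th2, 16 passed with a mean-dependent prior and 0 otherwise. The 111 genes at 2-fold or more in both genotypes became 357 without the low-signal filter, 1 among brighter genes, 16 with the floor at the 40th percentile and 70 with the mean of all probe sets. With 1 pair alone they were 593 (without either wild type array) or 701 (without either Ezh2 KO array). The 1115 genes with a 2-fold difference between the pairs became 3569 without the filter, 64 among brighter genes and 717 with the higher floor.

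With 1 array left out, 8 core genes took values of both signs. Hlx, whose difference was 0 with all arrays, ran from -0.72 to 0.72 and was -0.30 with no floor. In the other 7, 10 values turned sign. The ranges were -0.17 (without Ezh2 KO unpolarized) to 0.077 (without wild type unpolarized) for Jak2 and -0.13 to 0.11 for Stat4, -0.0016 (without wild type Th1) to 0.57 for Ifngr1, -0.29 to 0.035 for Socs1, -0.38 to 1.20 for Il10, -0.69 to 0.29 for Il4 and -0.13 to 0.0072 for Ezh2. Without Ezh2 KO unpolarized, Stat4 was at 0.11, Socs1 at 0.012, Il10 at -0.29 and Il4 at 0.25. The other 321 core gene values, Hlx left out, kept their sign, though some moved far: Tbx21 ran from 0.49 to 2.46, Cxcr3 from 0.26 to 2.33, Ccl5 from 0.72 to 1.73 and Il12rb2 from 0.18 to 1.48, each lowest without wild type Th1 and highest without Ezh2 KO Th1. In such fits the lone array is assumed to vary like the others. The genotype difference is then taken from the remaining cultures, Th2 included, so these values also carry Th2 values. Hlx, at the floor on all 4 unpolarized and Th1 arrays, moved in these fits only through the Th2 arrays. The cause of the other shifts was not tested. The labels give no replicate numbers, and genotype is the block; with the 4 arrays alone, paired by genotype, 0 genes passed and 671 had an unadjusted p under 0.05.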

Other observations

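Among brighter genes outside the lists, several had the same order over the 4 arrays, chosen after their values were seen. Slamf7, a receptor of cytotoxic and plasma cells, was at 205 and 596 in wild type unpolarized and Th1 cells and at 1003 and 1236 in Ezh2 KO cells. Lif, a cytokine of the IL-6 family, was at 1402 and 3714 and at 4859 and 6054. The metallothionein Mt2 was at 645 and 1549 and at 2599 and 3841.

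A few wild type differences had no counterpart in Ezh2 KO cells. Hmgn3, a nucleosome binding protein, was at 553 and 1139 in wild type and at 659 and 646 in Ezh2 KO cells, and Gpld1 at 700 and 1546 and at 618 and 602. These were among the 5 of 47 genes whose KO unpolarized array lay below the wild type Th1 array. Acsl6, an acyl-CoA synthetase, was at 1146 and 326 in wild type and at 258 and 197 in Ezh2 KO cells, and Nrp1 at 918 and 437 and at 576 and 544. Differences between the genotypes' responses were not tested.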
